A study of Drosophila melanogaster with 3 samples.

Results

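The deep intronic peaks are the ChIP-seq peaks whose summit lies inside an annotated gene, in no exon of any transcript, and more than 5000 bp from every annotated transcription start site (TSS). They number 567 of the 3839 peaks that passed the authors' irreproducible discovery rate (IDR) threshold, or 14.8% (95% Wilson interval 13.7 to 15.9%). Genes and start sites were those of the Ensembl BDGP6 annotation, with transposable element entries left out.

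The study recovered chromatin from whole prepupae of Drosophila melanogaster, both sexes mixed, aged 24 hours, from a transgenic line that carries salr fused at its C terminus to GFP. There were 3 libraries, all of this one genotype and age, given in the labels as biological replicates. No tissue or cell type was separated, so every peak is a sum over all the cells of the animal. The labels differ on what the libraries are: a free-text line describes each as an input control, while the assay title, the antibody entry and a separate control name a transcription factor ChIP, and the peaks are described here under the assay title.

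The salr gene (spalt-related) encodes a multi-zinc-finger transcription factor of the spalt family, known together with its neighbour salm for patterning the wing, sensory organs and nervous system, and spalt genes respond to the BMP-type ligand encoded by dpp. Developmental genes of the fly often have long introns, and many enhancers that drive them in particular tissues lie there, far from any promoter. In prepupae the steroid hormone ecdysone directs metamorphosis through a cascade of nuclear receptors and other early genes.

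The DNA at the summits is shown for 6 of the 7 strongest deep intronic peaks and for a pair of others (kirre and sba) that carry both AAATAT and AATATT, because most deep intronic peaks had a centre richer in A and T than its surroundings. The fourth strongest, in dnr1, is not shown; its centre had a GC content of 53.5%. Each line gives 101 bp centred on the summit, on the plus strand of dm6, read from the RefSeq Release 6 genome sequence. Capitals mark runs of at least 6 consecutive A or T bases.
Raf (chrX:2300644-2300744): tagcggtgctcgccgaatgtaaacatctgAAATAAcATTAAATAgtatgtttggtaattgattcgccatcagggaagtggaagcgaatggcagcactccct
CG32486 (chr3L:3060751-3060851): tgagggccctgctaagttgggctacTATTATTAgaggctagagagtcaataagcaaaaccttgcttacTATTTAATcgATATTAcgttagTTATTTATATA
dpp (chr2L:2433597-2433697): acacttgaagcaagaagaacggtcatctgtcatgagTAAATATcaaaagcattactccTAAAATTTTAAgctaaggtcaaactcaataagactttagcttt
Myc (chrX:3381860-3381960): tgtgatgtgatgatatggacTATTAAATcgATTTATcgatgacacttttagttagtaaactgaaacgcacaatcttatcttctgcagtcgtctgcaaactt
pnt (chr3R:23326432-23326532): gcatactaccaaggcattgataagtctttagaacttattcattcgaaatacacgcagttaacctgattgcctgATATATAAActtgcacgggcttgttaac
CG42238 (chr2L:21009475-21009575): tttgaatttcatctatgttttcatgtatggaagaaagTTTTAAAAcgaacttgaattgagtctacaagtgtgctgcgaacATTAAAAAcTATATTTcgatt
kirre (chrX:3046122-3046222): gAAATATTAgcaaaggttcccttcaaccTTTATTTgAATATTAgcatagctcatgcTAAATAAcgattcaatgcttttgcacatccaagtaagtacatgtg
sba (chr3R:23915194-23915294): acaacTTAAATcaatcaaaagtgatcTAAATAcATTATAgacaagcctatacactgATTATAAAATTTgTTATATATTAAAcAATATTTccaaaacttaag
The capitals cover 14 of the 101 bases at Raf, 33 at CG32486, 18 at dpp, 14 at Myc, 9 at pnt, 23 at CG42238, 29 at kirre and 49 at sba. GC content of the 8 windows shown ran from 21.8% at sba to 43.6% at Raf.

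For contrast, a pair of promoter peaks of the same IDR list, picked for a window that holds TATCGATA and no exon, is shown in the same way, with capitals marking TATCGATA, the DNA replication-related element found at many housekeeping promoters. The summit lay 638 bp from the nearest TSS, that of Stt3A, in the first window, and 126 bp from the TSS of CG7369 in the second.
Stt3A (chrX:21053249-21053349): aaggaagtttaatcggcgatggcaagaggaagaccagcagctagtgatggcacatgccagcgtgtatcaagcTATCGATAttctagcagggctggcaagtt
CG7369 (chr3L:22741617-22741717): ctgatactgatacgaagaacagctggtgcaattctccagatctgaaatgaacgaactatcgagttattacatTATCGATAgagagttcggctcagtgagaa
These windows had a GC content of 49.5% and 40.6%. The same 8 letters were in none of the deep intronic windows, as counted further on.

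One library stands apart. Among deep intronic peaks in the strongest 3839 of each library, GC content at the summit minus that 500 bp away was -8.27 points in library 1, -0.56 in library 2 and -8.47 in library 3. Values per library are therefore given beside the main results on sequence, which were computed on the pooled IDR peaks. Peak signal is the value the authors' caller gave, on a scale that is not stated, and it is expressed as relative signal, the signal divided by the median of that library's list of 30000 peaks. Depth is unknown, since the lists carry no read counts. Wilson intervals cover counting error only, and neighbouring peaks are not independent replicates.

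The strongest deep intronic peak lay in Raf (FBgn0003079), which encodes the MAP kinase kinase kinase that acts below Ras, on X from 2300559 to 2300845, with the summit 5228 bp from the TSS of the same gene. Its relative signal was 20.8 in library 1, 19.9 in library 2 and 26.1 in library 3, a mean of 22.3 ± 3.34 (SD, n = 3), and it ranked 29 in the IDR list. The next was in CG32486 (3L, 3060670 to 3060932), with 22.8, 14.4 and 20.8 (mean 19.3 ± 4.38, SD, n = 3). All 3 libraries placed both peaks among their 78 strongest.

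The peak in dpp (FBgn0000490), the BMP-type ligand gene, lay on 2L from 2433495 to 2433785, in the first intron and 5275 bp from the gene's own TSS. Relative signal was 20.2, 16.5 and 20.9 in libraries 1 to 3 (mean 19.2 ± 2.38, SD, n = 3). A peak in dnr1, the fourth by pooled signal, was far higher in library 2 than in the others. Its relative signal was 14.9, 29.5 and 11.7 in libraries 1 to 3 (mean 18.7 ± 9.52, SD, n = 3), and it ranked 114, 8 and 268 in them. Its summit had a GC content of 53.5%, the highest of the 11 strongest deep intronic peaks.

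A peak at Myc, a transcription factor gene that drives growth, lay on X from 3381777 to 3382041, inside Myc and also inside lncRNA:CR44999, and 8751 bp from the Myc TSS. Relative signal was 17.2, 13.9 and 20.9 (mean 17.4 ± 3.50, SD, n = 3). The peak in pnt, which encodes the ETS factor that Ras signalling activates, had 13.04, 13.3 and 16.3 (mean 14.2 ± 1.83, SD, n = 3), and that in CG42238 had 12.9, 13.2 and 16.9 (mean 14.3 ± 2.20, SD, n = 3). Library 3 was the highest of the libraries at each of these.

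The next 4 peaks had means between 12.1 and 13.8. One lay where Mi-2, a chromatin remodelling ATPase gene, overlaps Su(Tpl), with 13.8, 12.1 and 15.6. The peak in kirre, an adhesion gene of the immunoglobulin family used in myoblast fusion, had 11.9, 9.15 and 17.5. Eip75B, an ecdysone-induced nuclear receptor gene, had 12.9, 11.1 and 13.7, and sba had 12.2, 9.02 and 15.0. Library 2 was the lowest and library 3 the highest at all 4 of these peaks.

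**Figure D1:**
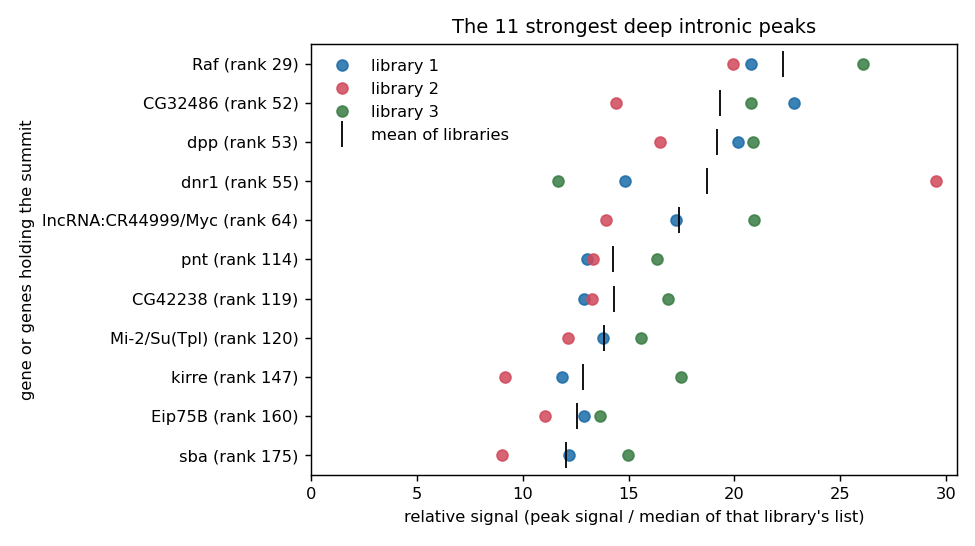
Relative signal (x axis, no unit) of the 11 strongest deep intronic peaks, by the gene or genes that hold the summit, with 1 point per library and a bar at the mean. The dnr1 point of library 2 (29.5) lies far from those of libraries 1 and 3 (14.9 and 11.7), and its SD of 9.52 exceeds those of the other peaks, which reach 4.38.

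Deep intronic peaks were scarcer near the top of the IDR list than in it as a whole, and so were intergenic peaks. Deep intronic peaks were 5 of the 100 strongest IDR peaks and 50 of the 500 strongest (Wilson interval 7.67 to 12.9%), against 75 of the 500 weakest (12.1 to 18.4%). Intergenic peaks were 47 of the 500 strongest and 14.2% of the list, and nearer intronic peaks were 89 of the 500 strongest and 19.8% of the list. The median relative signal of the matched deep intronic peaks was 3.07 in library 1, 2.83 in library 2 and 4.003 in library 3, against 3.74, 3.17 and 4.57 for promoter peaks. Intergenic peaks had nearly the same medians as deep intronic ones, at 3.05, 2.75 and 3.95. On the log2 scale the difference of medians between deep intronic and promoter peaks was -0.29, -0.16 and -0.19, a mean of -0.21 ± 0.064 (SD, n = 3), lower in all 3 libraries. The exact two-sided sign-flip permutation test gave p = 0.25, the smallest that 3 libraries allow.

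The authors' pooled list, which includes weak peaks and background, holds 30000 peaks, of which 12.8% are in the IDR list. The IDR peaks were the 3839 strongest of the pooled list. A share in the IDR list is therefore a cut on pooled signal, the same ranking as above, and the tests on it took single peaks as units. Of the 6185 deep intronic peaks of the pooled list, 567 were in the IDR list, or 9.17% (Wilson interval 8.47 to 9.91%). The share was 13.7% for all other pooled peaks, lower for deep intronic peaks by 4.57 points (Fisher's exact test, adjusted p = 1.31e-22 over 3 comparisons). Among intronic peaks 1000 to 5000 bp from a TSS it was 12.96%, a difference of -3.80 points (Fisher's exact test, adjusted p = 4.52e-11). Among intergenic peaks it was 8.12%, and that difference of 1.05 points (Fisher's exact test, adjusted p = 0.0355) was lost in 6 of the alternatives, including without library 2 (0.552 points, adjusted p = 0.202, range over all alternatives 0.000593 to 0.529). Here a library was left out by keeping only the IDR peaks among the strongest 3839 of both other libraries. The peak calls themselves still came from all libraries.

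Within each library, the strongest 3839 peaks held 14.1%, 15.0% and 16.0% deep intronic peaks in libraries 1, 2 and 3, and the weakest 3839 held 19.7%, 19.4% and 23.03%. The share was lower among the strongest in every library, by a mean difference of -5.68 ± 1.27 points (SD, n = 3; exact sign-flip permutation p = 0.25, the smallest possible). Measured against sequence, deep introns span 28.3 Mb, 21.1% of the chromosome arms, and held 20.05 IDR peaks per Mb. Intronic sequence nearer to a TSS held 37.8 per Mb, intergenic sequence 16.3 and promoter sequence 60.3.

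The median deep intronic summit was 9521 bp from the nearest TSS, with a range of 5001 to 51811 bp. There were 266 summits (46.9%) more than 10000 bp away and 69 (12.2%) more than 20000 bp away. The share of pooled intronic peaks in the IDR list was 14.7% at 1000 to 2000 bp, 10.3% at 5000 to 7500 bp and 9.34% at 20000 to 30000 bp. Beyond 30000 bp it was 4.86% (17 of 350, Wilson interval 3.05 to 7.64%). In the libraries' own lists the share of peaks beyond 30000 bp that were among the strongest was 5.32%, 3.97% and 4.46% (mean 4.59 ± 0.683, SD, n = 3), below the 9.95%, 9.81% and 9.13% found at 7500 to 10000 bp (mean 9.63 ± 0.439, SD, n = 3). From 2000 bp outwards the intervals of all neighbouring bins overlapped. That of 20000 to 30000 bp (7.19 to 12.0%) also overlapped that of the farthest bin.

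**Figure D2:**
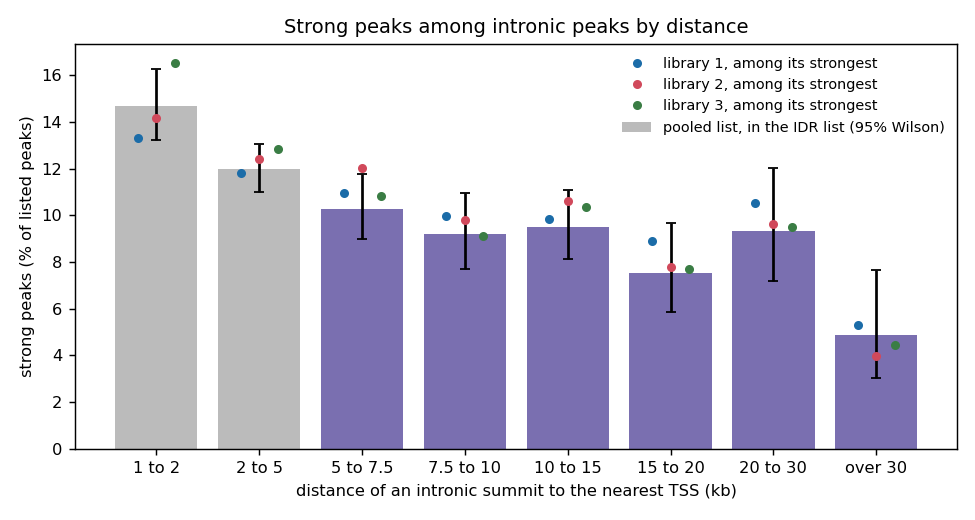
Share of listed intronic peaks that were strong (y axis, %), by distance of the summit to the nearest TSS (x axis, kb). Bars give the pooled list's share in the IDR list with 95% Wilson intervals (purple, beyond 5 kb), and points give each library's share among its strongest 3839; bars run from 14.7% in the nearest bin to 4.86% in the farthest.

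At the boundary itself, the summits just inside were those in chm, a histone acetyltransferase gene, at 5001 bp (relative signal 3.21 in library 1 and 5.94 in library 3, not matched in library 2) and in boi, a Hedgehog co-receptor gene, at 5044 bp (1.11, 2.15 and 3.51). Just outside were those in CG46339 at 4988 bp (4.64, 3.70 and 3.58) and in Pdk, a pyruvate dehydrogenase kinase gene, at 4993 bp (2.19, 3.09 and 2.30).

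Of the 567 peaks, 486 (85.7%) had a summit within 100 bp in all 3 libraries, 74 in a pair of them, 7 in a single one and 0 in none. IDR itself selects peaks that recur, so this share is a description. Library 2 lacked 52 of them, library 3 lacked 22 and library 1 lacked 14. The share found was 97.5% in library 1 against 96.3% for other IDR peaks (Fisher's exact test, adjusted p = 0.173), 90.8% against 92.7% in library 2 (adjusted p = 0.173) and 96.1% against 91.7% in library 3 (adjusted p = 0.000326). In library 3 the share was 95.4% for nearer intronic, 97.4% for intergenic and 88.5% for promoter peaks, so it was the promoter peaks that were low there and the higher share was not particular to deep introns. The difference from other IDR peaks, 4.46 points, was no longer past the threshold when summits had to lie within 50 bp (3.51 points, Fisher's exact test, adjusted p = 0.105). Among the strongest 3839 peaks of libraries 1, 2 and 3 there were 443, 364 and 471 of the 567, and 268 (47.3%) were among the strongest in all 3.

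All 567 summits lay in an intron of an annotated transcript, and 546 lay in a protein-coding gene. The median intron was 20919 bp long (294 to 126467 bp) and the median distance to an exon was 4814 bp, so 433 of the summits (76.4%) were at least 2000 bp from any exon. The nearest TSS belonged to a gene other than the one that holds the summit for 262 (46.2%, Wilson interval 42.1 to 50.3%). Another IDR summit lay within 5000 bp of 308 of them (54.3%).

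First introns, which often hold regulatory sequence, held 291 of the summits (51.3%). Among the 5618 weaker deep intronic peaks of the pooled list the share was 41.9%, lower by 9.42 points (Fisher's exact test, p = 1.84e-05). The weaker peaks lay somewhat farther from a TSS (median 10146.5 bp, against 9521 bp), and distance was not matched. In the libraries' own lists the share was 52.1%, 52.96% and 48.5% among the strongest deep intronic peaks and 38.0%, 41.4% and 35.2% among the weakest, a mean difference of 12.99 ± 1.33 points (SD, n = 3; exact sign-flip permutation p = 0.25). Beyond 10000 bp from a TSS the pooled difference was 2.97 points (39.1% against 36.1%, Fisher's exact p = 0.351), with a range of p over the alternatives of 4.4e-07 to 0.351.

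The X chromosome held 124 of the deep intronic peaks, or 21.9%, against 16.0% of the weaker pooled deep intronic peaks (5.89 points, Fisher's exact test, p = 0.000559). The difference kept its sign and stayed under the threshold in all alternatives run (4.35 to 8.55 points, p from 4.18e-05 to 0.0466). Those with a library left out kept the IDR peaks strong in both others, set against the same weaker peaks (16.0%). The peak calls still drew on every library, so dependence of the calls on a library was not tested. By library, X held 20.4%, 16.7% and 24.7% of the strongest deep intronic peaks and 15.9%, 15.4% and 21.5% of the weakest, a mean difference of 3.03 ± 1.64 points (SD, n = 3; exact sign-flip permutation p = 0.25). The difference was 1.31 points in library 2 and 4.57 and 3.22 points in libraries 1 and 3. Per Mb of deep intronic sequence there were 24.9 peaks on 2L, 23.1 on X, 21.1 on 3L, 17.3 on 3R and 17.0 on 2R. Arm 4 had 0, with 0.259 Mb of such sequence.

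The peaks fell in 307 genes, 16.9% of the 1812 genes that have deep intronic sequence. A single peak was found in 170 of these hosts, and 4 or more in 41. The 8 genes with the most held 72 peaks (12.7%). Tet, which encodes a dioxygenase of the TET family, held 14 within 93.0 kb of gene, more than any other gene, from 5.91 to 79.6 kb past its 5′ end. Their mean relative signals ran from 2.04 to 6.01, so the count there came from many peaks of modest signal.

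In kirre, 11 peaks lay between 268 and 346 kb past the 5′ end of a gene of 394 kb, and none nearer to it. Their mean relative signals ran from 2.24 to 12.8, with a median of 5.85. SKIP, which encodes a partner of a potassium channel, held 9 peaks, and lncRNA:CR44357 held 8, of which 5 were also inside CG1677 on the X. In sbb, a transcriptional co-repressor gene, all 8 peaks lay between 11.5 and 23.9 kb, in a first intron. The strongest of them had 8.09 in library 1 and 9.93 in library 3 and was not matched in library 2. In heca, a gene of imaginal cell development, 8 peaks lay between 6.23 and 58.3 kb. Snoo, a Ski and Sno family co-repressor gene, held 7, all in a first intron, with the strongest at 9.19, 10.7 and 15.0. In mgl, the endocytic receptor megalin, the 7 peaks were weak, with a median relative signal of 2.32.

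**Figure D3:**
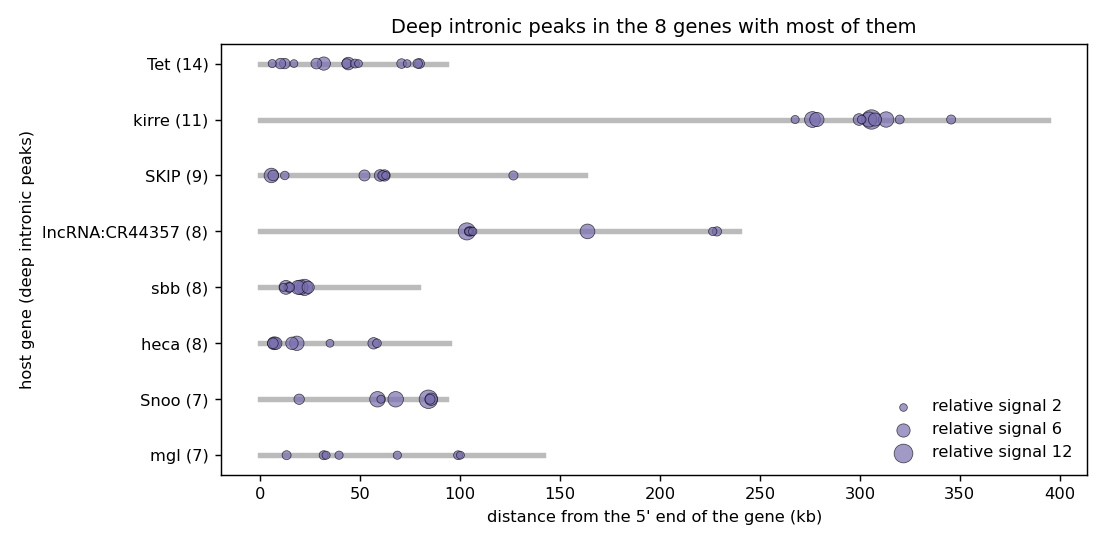
Deep intronic peaks along the 8 genes that hold the most (x axis, kb from the gene's 5′ end; grey line, the whole gene), with circle area proportional to mean relative signal. Peaks spread along Tet, whereas those of kirre lie between 268 and 346 kb and those of sbb between 11.5 and 23.9 kb.

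Host genes were described by 16 lists of pathway and tissue genes. These lists were drawn up with earlier results of these data known, so counts are given with no test, beside 16.9% of genes hosting and 20.05 peaks per Mb over all genes with deep intronic sequence. The lists were not matched for length. Among protein-coding genes, 7.62% with up to 10 kb of deep intronic sequence were hosts, 25.9% with 10 to 30 kb and 42.0% with more. Genes of the ecdysone and metamorphosis list had a median of 26.2 kb of deep intronic sequence, against 6.05 kb over all genes. Of 17 such genes in that list, 11 were hosts, with 28 peaks (69.6 per Mb). They included the nuclear receptor genes Eip75B and Hr4 and the transporter gene E23. The strongest peak of Hr4 had a relative signal of 11.2, 8.97 and 15.1, and that of E23 had 9.36, 8.84 and 8.03. EcR, the ecdysone receptor gene itself, held 1 peak.

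Lists of the signalling pathways that act in imaginal disc growth and patterning also lay above both values over all genes. Of the EGFR, FGFR and Ras list, 6 of 14 genes were hosts, with 95.1 peaks per Mb. After Raf and pnt came S (Star), which acts in the trafficking of EGFR ligands, whose strongest peak had 4.53, 3.90 and 5.77. Of the Dpp and activin list, 4 of 7 were hosts (85.7 per Mb): besides dpp these were shn, a zinc finger factor of the Dpp response (9.13, 7.68 and 10.01), the inhibitory Smad gene Dad (2.82 in library 2 and 8.74 in library 3, not matched in library 1) and the receptor gene tkv.

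In the Wnt and Hedgehog list, 5 of 11 genes were hosts (65.2 per Mb), among them the Wnt receptor genes fz (9.005, 8.86 and 7.35) and fz2 (5.89, 5.31 and 9.83) and the Wnt ligand gene wg (5.49, 4.87 and 5.44). In the Hippo and Fat list, 4 of 8 were hosts (74.6 per Mb): the atypical cadherin gene ds had 8.15, 6.92 and 11.9, 39590 bp from a TSS, the scaffold gene kibra had 5.49, 5.63 and 9.67, and ft had 1.61, 2.39 and 3.09. In the Notch list, 6 of 10 were hosts (63.2 per Mb), led by the receptor gene N itself (7.25, 5.72 and 8.27), then its ligand gene Delta (6.95, 5.17 and 6.68) and the transcription factor gene kn (2.65, 2.38 and 3.50). In the insulin, TOR and growth list, 4 of 8 were hosts with 135 peaks per Mb, from 12 peaks in only 0.0888 Mb. They included Myc, the gene of its antagonist Mnt (10.2, 6.29 and 9.23) and the insulin receptor gene InR, which held 5 (strongest 2.82, 5.55 and 3.43).

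Wing and appendage patterning factors were hosts in 7 of 23 cases (43.7 per Mb), with inv, an engrailed-type homeodomain gene, highest (6.50, 5.17 and 7.81), followed by knrl (5.76, 4.999 and 5.88). The GATA cofactor gene ush had 3.72, 2.92 and 3.94 and held 4 peaks. With grn it made 2 of 3 hosts in the short GATA list. Chromatin and insulator factors were hosts in 4 of 10 cases (68.6 per Mb), among them trx, a Trithorax group histone methyltransferase gene (8.48, 8.61 and 9.77), and Psc, a Polycomb group gene (5.41, 8.26 and 10.4).

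Lists of neuronal genes lay below both values over all genes. Genes of the ion channel and of the recognition lists had a median of 24.4 and 22.9 kb of deep intronic sequence, against 6.05 kb over all genes. Of 32 ion channel and synapse genes with deep intronic sequence, 2 were hosts (nAChRalpha6 and dnc), with 2.08 peaks per Mb over 0.963 Mb. Of 12 neural and sensory fate factors, 1 was a host, the homeodomain gene ct (2.73, 2.77 and 5.50). Of 67 neuronal recognition and adhesion genes, 9 were hosts (13.4%, 12.2 per Mb), and 11 of their 29 peaks were in kirre. The next strongest there was in Ten-a, a teneurin gene (3.23, 3.38 and 5.83). RNA-binding regulators were hosts in 6 of 19 cases but had 7.002 peaks per Mb, led by shep (6.12, 4.68 and 12.5). Muscle genes gave 3 of 18 (12.2 per Mb), led by twi (5.23, 4.13 and 5.71). That summit also lay inside CG42741, 7941 bp from the 5′ end of CG42741 and 49628 bp from that of twi. The spalt genes, salr and salm, held 0, and they have only 2.65 kb of deep intronic sequence between them.

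**Figure D4:**
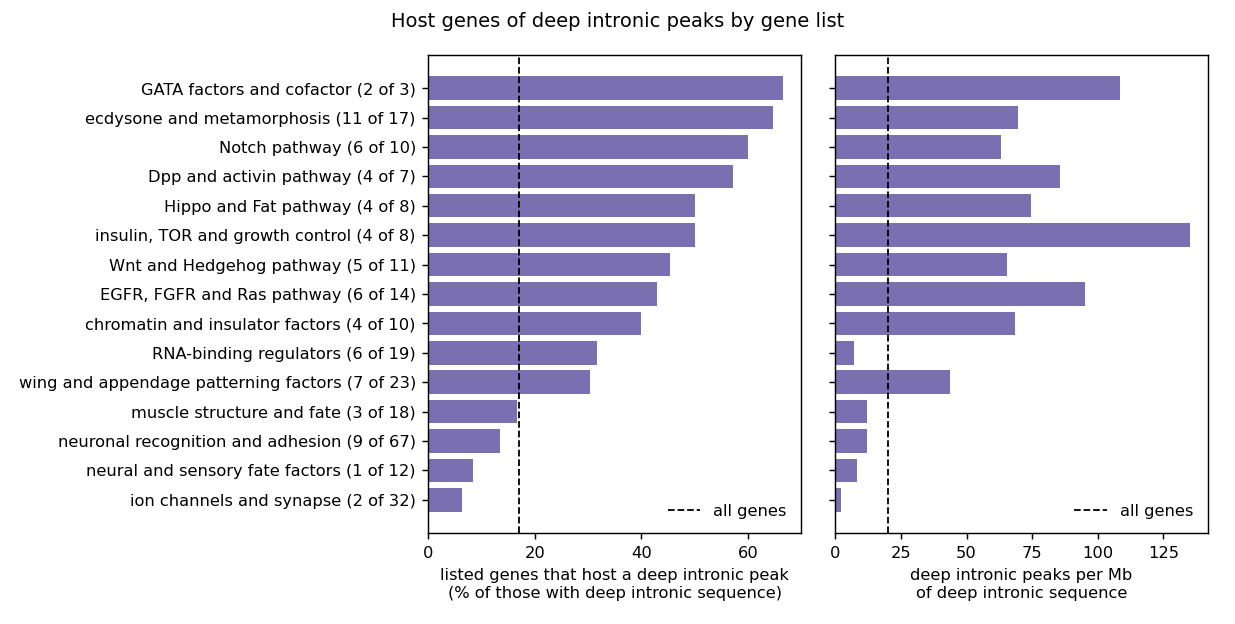
Share of listed genes with deep intronic sequence that host a deep intronic peak (left, %) and peaks per Mb of that sequence (right), for 15 lists with more than 2 such genes; dashed lines are the values over all genes (16.9% and 20.05 per Mb). The ecdysone list reaches 64.7% and the ion channel and synapse list 6.25%. Lists were not matched for length of deep intronic sequence (median 26.2 kb and 24.4 kb in these lists, 6.05 kb over all genes).

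Hosts also had a peak at their own promoter more often than other long-intron genes. An IDR peak lay within 1000 bp of a TSS of 125 of the 307 hosts (40.7%, Wilson interval 35.4 to 46.3%) and of 299 of the 1505 other genes with deep intronic sequence (19.9%, 17.9 to 22.0%). Among protein-coding genes with more than 30 kb of deep intronic sequence the shares were 51 of 102 (Wilson interval 40.5 to 59.5%) and 13 of 141 (9.22%, 5.47 to 15.1%). With 10 to 30 kb they were 34.2% and 17.0%, and with up to 10 kb 38.6% and 22.8%. The number of start sites per gene was not matched, and these shares were not tested. Of the 8 genes with most peaks, Tet, sbb, heca, Snoo and mgl had a promoter peak, and kirre, SKIP and lncRNA:CR44357 had none.

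The deep intronic summits were poor in G and C. GC content within 50 bp of the summit averaged 34.7% ± 8.25 (SD over 567 peaks), against 41.9% ± 9.05 in a window centred 500 bp away, and was lower at the summit in 411 of 567. The 5618 weaker deep intronic peaks of the pooled list went the other way, with 44.4% at the summit and 41.1% beside it. Other IDR classes also had a low centre, at 35.1% for nearer intronic peaks, 34.9% for intergenic peaks and 37.5% for promoter peaks, so the low centre was not particular to deep introns.

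The dip had shoulders. Mean GC content in bins of 20 bp fell to 34.4% at the deep intronic summits, rose to 47.4% about 250 bp away and returned to 40.4% beyond 800 bp. By library, the strongest deep intronic peaks had 34.2%, 40.2% and 34.2% GC at the summit and 42.5%, 40.8% and 42.6% beside it. Summit minus flank averaged -5.77 ± 4.51 points (SD, n = 3; exact sign-flip permutation p = 0.25), and -8.37 without library 2, so library 2 sets most of that spread. In windows reaching 100 bp from the summit, library 2 changed sign (1.05 points, against -5.71 and -6.91 in libraries 1 and 3). Among the strongest 1000 peaks of each library it was nearer to the others, at -7.21 points against -10.8 and -9.95. Across the 486 peaks found in all libraries, the log2 ratio of library 2 to the mean of the others rose with summit GC content (Pearson's r = 0.33, Spearman's coefficient 0.25). The same measure gave r = -0.10 for library 1 and -0.30 for library 3; these ratios share libraries and peaks, and are a description. What makes library 2 differ was not tested.

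**Figure D5:**
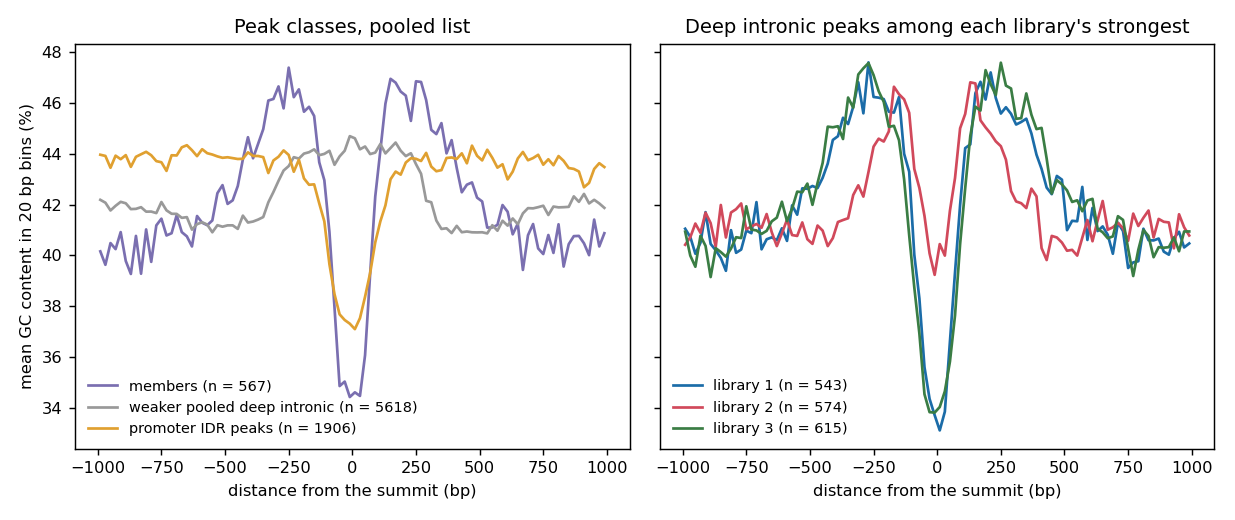
Mean GC content in bins of 20 bp (y axis, %) by distance from the summit (x axis, bp), for deep intronic IDR peaks (members), weaker pooled deep intronic peaks and promoter IDR peaks (left) and for the deep intronic peaks among each library's strongest 3839 (right). The deep intronic IDR peaks dip to 34.4% between shoulders near 47.4%; libraries 1 and 3 dip alike, and library 2 dips to 39.2%.

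Single words showed the same composition. All 2080 six-base words, with reverse complements merged and both strands searched, were compared between the summit window and the flank by an exact binomial test on peaks with the word in only one of them, adjusted by Benjamini-Hochberg. At the deep intronic summits 81 words were more frequent (3.89%) and 80 less frequent (3.85%). Of the former, 63 had at most 1 G or C, and of the latter 79 had 3 or more. AAATAT was in 30.9% of summit windows and 14.3% of flanks (exact binomial test, adjusted p = 5.47e-08). AATATT, the kind of word bound by SALL4, a spalt homologue of the mouse, was in 17.6% and 7.76% (exact binomial test, adjusted p = 0.000165). The words overlap in AAATATT, which 77 of the 567 windows held. Of the 36 words made of A and T alone, 35 had a higher share at summits than flanks and 18 were called. AAATAT was in 30.8% of nearer intronic and 28.0% of intergenic summit windows, and AATATT in 17.8% and 15.2%. Neither word was thus particular to deep introns. The simple repeat CACACA was less frequent at summits, 7.23% against 13.2% (exact binomial test, adjusted p = 0.0221), but 9 of the 13 alternatives run for it lost the call (adjusted p up to 0.517 in that exact test). GAGAGA, the GAGA factor word, was in 6.53% and 5.996% (exact test, adjusted p = 0.994).

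The libraries differed in these counts. Among the deep intronic peaks in each library's strongest 3839, 98 words were more and 99 less frequent in library 1 and 164 and 190 in library 3. In library 2 both counts were 0 in the exact binomial test, with 87 words at an unadjusted p under 0.05, against 514 and 658 in libraries 1 and 3. AAATAT was in 30.4% of summit and 14.2% of flank windows in library 1, in 21.4% and 17.8% in library 2, and in 31.5% and 14.8% in library 3. For AATATT, library 1 had 17.9% at summits and 6.63% beside them, library 2 had 12.7% and 8.36%, and library 3 had 18.4% and 7.64%. CACACA was lower at summits in library 1 (7.18% and 12.2%) and library 3 (6.34% and 10.7%) and higher in library 2 (11.8% and 10.6%). GAGAGA was at 6.63% and 5.52%, 6.45% and 5.05%, and 6.50% and 5.37% in libraries 1 to 3. Without library 2, the 379 peaks that were among the strongest of both other libraries gave 81 and 80 words. Without library 3, 3 and 3 words were called from 311 peaks, and AATATT was no longer past the threshold (9.003 points, exact binomial test, adjusted p = 0.0684, range over all alternatives 3.2e-06 to 0.187). Without library 1, 18 and 15 were called from 296.

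Against promoter summits few words differed. In Fisher's exact tests over the 2080 words, 4 were more frequent at deep intronic summits (0.192%) and 8 less frequent (0.385%), and all 8 of the latter contain CG. GAATCA was in 8.11% of deep intronic and 3.41% of promoter windows (Fisher's exact test, adjusted p = 0.00571), and CGATAG in 1.59% and 5.67% (adjusted p = 0.00726). None of these calls remained when any 1 library was left out, which kept only the IDR peaks strong in both others. That left 137 to 166 words at an unadjusted p under 0.05 and 296 to 379 deep intronic peaks in place of 567. The summits still came from the pooled calls. The differences themselves stayed near their size, at 4.19 to 5.36 points for GAATCA (4.70 over all 567 peaks) and -3.88 to -3.38 for CGATAG (-4.08). CGATAG was in 1.31% of nearer intronic and 1.83% of intergenic windows, so its low share was not particular to deep introns. All 8 less frequent words had lower shares in those classes than at promoters. Except for CGATAG, these lay above the deep intronic shares. CGCGGC, for instance, was in 0.787% of nearer intronic, 0.914% of intergenic, 0.176% of deep intronic and 2.57% of promoter windows. GAATCA was in 6.299% of nearer intronic and 4.205% of intergenic windows, both between the deep intronic and promoter shares. AATATT did not pass against promoters (17.6% against 12.6%, Fisher's exact test, adjusted p = 0.125).

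The 8-base word TATCGATA, searched on both strands, was in 0 of the 567 deep intronic windows, which allows a share of up to 0.529% by a floor of 3 counts (Wilson upper limit 0.673%), and in 40 of the 1906 promoter windows (2.10%, Wilson interval 1.54 to 2.85%). It was in 0.131% of nearer intronic and 0.366% of intergenic windows. It was also rare in deep intronic sequence outside these summits, in 1 of the 567 flank windows and 7 of the 5618 weaker pooled peaks (0.125%). In each library's strongest 3839 it was in 0 of the 543, 574 and 615 deep intronic peaks of libraries 1, 2 and 3. Among promoter peaks there it was in 48, 20 and 33 (2.36%, 1.03% and 1.89%). The core promoter word GGTCACAC was in 1 deep intronic window (0.176%) and 28 promoter windows (1.47%). It was in 0.394% of nearer intronic and 0.366% of intergenic windows, so its low share was not particular to deep introns. These longer words are given as counts with no test.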

How the data were processed

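The libraries were grouped by assay title into a single group of 3. Peak lists on dm6 were deposited per library, for the pooled libraries and for peaks past the IDR threshold, each library and pooled list holding 30000 peaks. The signal of a peak is the value deposited by the authors. For its scale, and for aligner and caller, the status is the same: not given in the sources used here. Each summit is the deposited peak start plus the summit offset.

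Peaks were classed with Ensembl BDGP6.54, release 115 (18164 genes, 23581 TSSs). Summits within 100 bp were matched. Words were counted in windows of 101 bp, with a flank window 500 bp up- or downstream, chosen by a seeded random draw. Intervals are 95% Wilson. All 409 listed genes matched the annotation, after older symbols were replaced by hand with the names the annotation uses.

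Named are the 12 strongest members, the 8 genes with most members, up to 3 hosts per list, and the summits next to 5000 bp; a member and a list are not reported here. The members, lists and words were chosen with earlier results of these data known. Words of 6 bases were adjusted over all 2080 words and longer ones counted only, although an adjustment over the short word list had been planned. Tools were scipy 1.17.1, pandas 2.3.3, matplotlib 3.10.9 and numpy 2.4.6 under Python 3.11.15. Alternatives covered the distance limit, start sites, matching, windows, flanks, background and each library left out.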

Additional observations from a re-analysis of the deposited data

How the results depend on the processing

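No paired analysis was possible because there is only 1 group of libraries, so no sample of another group to pair with; the comparisons within libraries and within peaks are of another kind. The lower share of deep intronic peaks in the IDR list, against all other pooled peaks (-12.7 to -2.75 points) and against nearer intronic peaks (-12.0 to -2.65 points), the X share, and the sign of the mean GC and signal differences held under the alternatives run for them, though library 2 alone changed sign in GC content with windows of 100 bp (1.05 points). The difference from intergenic peaks was 0.931 points with protein-coding TSSs only, 3.31 against the lowest-signal peaks, 0.379 beyond 10000 bp, 0.479 in the stronger part of the IDR list and 0.689 with transposable element entries kept, none past the threshold, and 0.552 to 1.14 with a library left out. The first intron difference was 2.97 points beyond 10000 bp. The difference in peaks found in library 1 changed sign at 50% overlap (-0.382 points), and that in library 3 was 3.27 points at 50% overlap, 3.51 within 50 bp and 1.97 in the stronger part of the list; the mean over libraries was -0.349 to 2.83 points with a library left out. The cause was not tested.

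Words more and less frequent at summits than flanks numbered 33 and 32 with the flank 1000 bp away, 11 and 6 beyond 10000 bp, 156 and 203 beyond 3000 bp, 10 and 5 in the stronger part of the list, 2 and 0 within 25 bp (256 at an unadjusted p under 0.05), and 3 to 81 and 3 to 80 with a library left out. Against promoters, more and less frequent words numbered 10 and 34 beyond 3000 bp and 26 and 35 within 100 bp. They were 0 and 0 beyond 10000 bp, in the stronger part of the list and within 25 bp (172, 144 and 166 at an unadjusted p under 0.05), and 0 with any library left out. With protein-coding TSSs only, 20 were less frequent. GAGAGA, not called, changed sign with the flank downstream (-0.176 points), beyond 3000 bp (-0.741), in the stronger part of the list (-0.407) and without library 2 or library 3 (-1.06 and -0.322), and was 0 without library 1. The settings beyond 3000 and 10000 bp left 810 and 266 peaks, the stronger part 246, and leaving out a library 296 to 379, so tests ran on different numbers of peaks. Read depth is unknown, so what it limits could not be set.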
